A study of Mus musculus with 16 samples.

Results

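Genes that mark neurons releasing GABA, the main inhibitory transmitter of the brain, were followed across cortex and thalamus of mice with 1 or 2 copies of the Pdgfb retention allele. They were chosen by symbol: the enzymes Gad1 and Gad2, the transporter Slc32a1, the transcription factor Lhx6, the calcium-binding proteins Pvalb, Calb1 and Calb2, and the neuropeptides Npy and Vip. These are 9 of the 21804 genes in the count table. Sst, the peptide gene that would complete the set, was not analysed here. The retention allele encodes a form of the growth factor PDGF-B that is not held at the vessel wall. The control mice were Pdgfb ret/wt and carried 1 copy of it, so no group was free of the allele. The other mice were Pdgfb ret/ret. All mice were of the C57BL/6 strain and 4 months old. Each of the 8 animals (4 per genotype) gave 1 cortex and 1 thalamus library, so ret/wt cortex, ret/ret cortex, ret/wt thalamus and ret/ret thalamus each had 4 libraries. The ret/ret thalamus pieces were vessel-associated calcifications cut out under a fluorescence stereomicroscope, whereas the ret/wt pieces were tissue of that region. Dissection and genotype therefore cannot be told apart in the thalamus. The question here was how the markers differ between the regions and whether genotype changes them.

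GABA is made from glutamate by 2 glutamate decarboxylases, the products of Gad1 and Gad2, and is loaded into synaptic vesicles by the transporter encoded by Slc32a1. Cortical GABAergic cells are interneurons of several subclasses, told apart by calcium-binding proteins and neuropeptides, and Lhx6 specifies those born in the medial ganglionic eminence. In the rodent thalamus GABAergic neurons lie mostly in the reticular nucleus, a shell of parvalbumin cells around the relay nuclei. Interneurons within the relay nuclei are few and many arise from midbrain precursors that express Sox14. Calb1 and Calb2 also mark excitatory neurons in both regions, and Pvalb and Calb1 are abundant in cerebellar Purkinje cells.

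On GRCm38 with the GENCODE M21 annotation, all 9 are protein-coding genes. Gad1 (ENSMUSG00000070880) lies on chromosome 2 at 70553072 to 70602014 and Gad2 (ENSMUSG00000026787) on chromosome 2 at 22622205 to 22693874. Slc32a1 (ENSMUSG00000037771) is at 158610767 to 158615748 and Lhx6 (ENSMUSG00000026890) at 36081953 to 36105408, also on chromosome 2. Pvalb (ENSMUSG00000005716) is on chromosome 15 at 78191114 to 78206400, Calb1 (ENSMUSG00000028222) on chromosome 4 at 15881264 to 15908064, and Calb2 (ENSMUSG00000003657) on chromosome 8 at 110137502 to 110168210. Npy (ENSMUSG00000029819) is on chromosome 6 at 49822710 to 49829507 and Vip (ENSMUSG00000019772) on chromosome 10 at 5639218 to 5647617. Antisense genes overlap Gad1 (Gad1os) and Slc32a1 (Gm14205). The libraries were stranded, but whether the counting used strand is not given in the sources used here, so reads of those partners cannot be told apart from those of Gad1 and Slc32a1.

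The promoters of 4 members are shown because the results turn on these pairs. Gad1 and Gad2 encode enzymes for the same reaction, and their ratio in each region is given below. Npy and Vip, both peptide genes, were low together in the thalamus. The windows are RefSeq sequences on GRCm38.p6, from 250 bases before to 50 bases after an annotated start, on the plus strand, with motif matches in capitals.
Gad1, chr2:70561879-70562178: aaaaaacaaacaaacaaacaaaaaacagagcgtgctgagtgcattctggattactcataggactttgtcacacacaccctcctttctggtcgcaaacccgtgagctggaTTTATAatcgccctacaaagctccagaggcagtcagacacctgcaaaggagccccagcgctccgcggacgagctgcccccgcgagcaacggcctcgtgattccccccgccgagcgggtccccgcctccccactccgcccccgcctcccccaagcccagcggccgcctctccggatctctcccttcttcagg
Gad2, chr2:22622077-22622376: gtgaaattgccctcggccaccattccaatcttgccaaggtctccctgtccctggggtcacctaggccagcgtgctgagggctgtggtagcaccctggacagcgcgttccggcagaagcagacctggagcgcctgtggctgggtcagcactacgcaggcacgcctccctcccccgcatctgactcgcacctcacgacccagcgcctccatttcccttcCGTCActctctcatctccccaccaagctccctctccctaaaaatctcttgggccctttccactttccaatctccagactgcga
Npy, chr6:49822460-49822759: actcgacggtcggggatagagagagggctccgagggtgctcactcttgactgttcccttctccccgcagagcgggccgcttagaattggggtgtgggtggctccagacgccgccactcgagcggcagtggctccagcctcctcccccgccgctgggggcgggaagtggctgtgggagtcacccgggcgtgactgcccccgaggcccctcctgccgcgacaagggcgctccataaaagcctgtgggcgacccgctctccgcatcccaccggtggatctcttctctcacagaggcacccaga
Vip, chr10:5638968-5639267: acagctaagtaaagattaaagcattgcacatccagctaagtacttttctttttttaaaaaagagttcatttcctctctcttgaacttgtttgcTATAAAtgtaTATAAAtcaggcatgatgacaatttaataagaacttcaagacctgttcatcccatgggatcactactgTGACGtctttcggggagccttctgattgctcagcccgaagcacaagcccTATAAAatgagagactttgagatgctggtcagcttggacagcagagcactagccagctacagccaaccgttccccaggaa
The Gad1 and Gad2 windows belong to RefSeq starts downstream of the first base of the GENCODE gene, and distances are from the RefSeq start. Both strands were searched for the cyclic AMP response element TGACGTCA, its core TGACG (contained in the whole element), the TATA box TATAAA and the homeodomain core TAATTA. Of 32851 mouse promoter windows of this length, 1.79% held the whole element, 20.8% its core, 13.6% the TATA letters and 5.29% the homeodomain core. The Vip window held the core element 79 bases before the start and the TATA letters at 157, 147 and 30 bases before it. The Gad2 window held the core element on the other strand 33 bases before the start, and the Gad1 window the TATA letters on the other strand 141 bases before it. None of the 4 motifs was found in the Npy window. These matches describe the letters only. RefSeq windows were matched for 7 of the 9 members, without Calb1 and Calb2.

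Library totals ran from 13415391 to 29135064 counts, and values below are CPM, counts scaled by TMM to a common library total over all 16 libraries. Cortical markers separated the regions in every library, and thalamic markers did so with some overlap. The summed level of 8 cortical glutamatergic markers was 817 to 2651 CPM in cortex and 79.1 to 339.97 CPM in thalamus. The sum of 8 thalamic glutamatergic markers was 355 to 3131 CPM in thalamus and 146 to 476 CPM in cortex. Its lowest thalamus value, in ret/ret replicate 4, lay below its highest cortex value, in ret/ret replicate 2. Of these markers, 7 of 8 cortical genes passed as lower in thalamus in each genotype, and 6 of 7 thalamic genes in ret/wt and 4 of 8 in ret/ret passed as higher. In 2 cortex libraries a list of 10 cerebellum markers stood far above the rest. Replicate 3 of ret/wt cortex reached a sum of 1829 CPM and replicate 2 of ret/ret cortex one of 4360 CPM, compared with 25.5 to 64.1 CPM in the other 6 cortex libraries and 59.0 to 336.4 CPM in thalamus. Gabra6, a granule cell receptor gene, was at 182 and 396 CPM in those 2 libraries and at 0 to 0.391 CPM in the other cortex libraries. Pcp2, a Purkinje cell gene, was at 66.9 and 192 CPM against 0 to 2.02 CPM. The thalamus libraries of the same 2 animals had the highest thalamic glutamatergic sums, 2945 CPM in ret/wt replicate 3 and 3131 CPM in ret/ret replicate 2. Gabra6 was at 0.120 and 0.179 CPM in those thalamus libraries. Results that rest on these animals are therefore given with and without both, which also leaves out those 2 thalamus libraries. One further library, ret/wt cortex replicate 4, held choroid plexus markers at 1129 CPM in sum, against 8.92 to 66.5 CPM in the other cortex libraries.

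**Figure D1:**
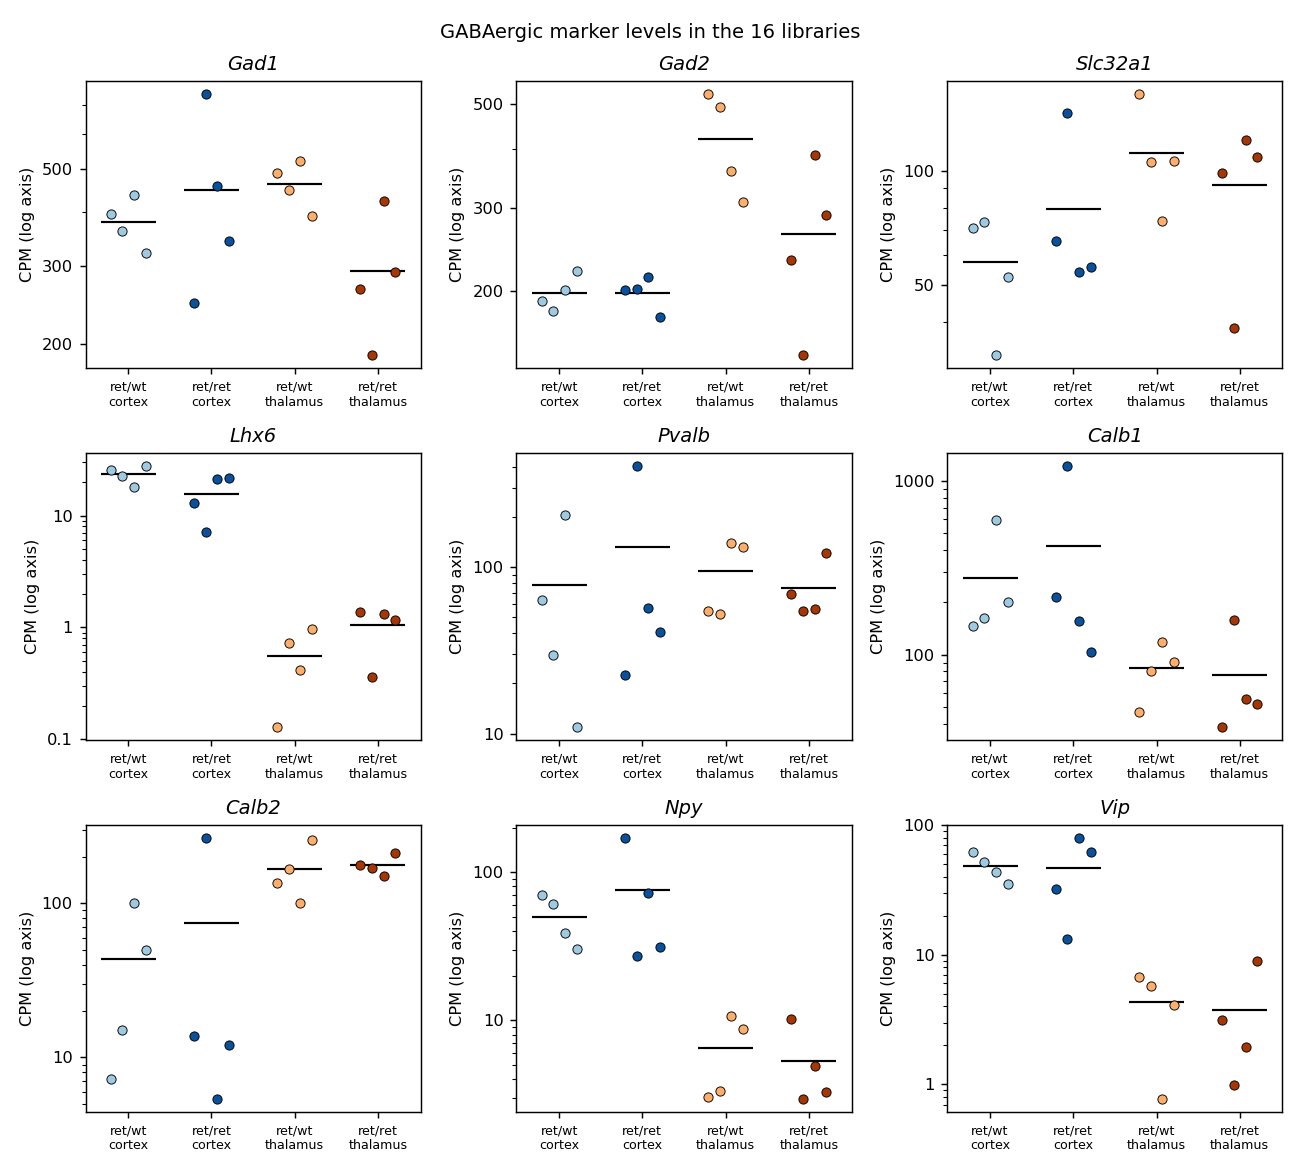
CPM of each of the 9 markers (log axis) in the 4 groups, 1 point per library (replicates 1 to 4 from left to right) with a line at the group mean. Lhx6, Npy and Vip lie lower in every thalamus library than in any cortex library, and ret/ret cortex replicate 2 holds the highest Gad1 (740.3 CPM), Pvalb (405 CPM), Calb1 (1218 CPM) and Calb2 (267 CPM) values.

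In ret/wt mice, 5 of the 9 markers differed between thalamus and cortex: Gad2 was higher in thalamus, and Lhx6, Npy, Vip and Calb1 were lower. In ret/ret mice Lhx6, Npy and Vip passed, all lower in thalamus. Tests were edgeR quasi-likelihood fits over all genes with Benjamini-Hochberg adjustment at 0.05. Over all genes tested, 12.6% were called between the regions in ret/wt (5.44% higher and 7.12% lower in thalamus) and 9.5% in ret/ret (4.1% higher and 5.4% lower). The values of the 2 regions did not overlap for 6 of the 9 markers in ret/wt and 3 of 9 in ret/ret, against 19.9% and 17.5% of all genes. The median log2 difference (thalamus minus cortex) of the members was 0.30 in ret/wt, against 0.03 for all genes, and -0.81 in ret/ret, against -0.02. Each median is the value of 1 gene, Gad1 in ret/wt and Pvalb in ret/ret. Without ret/wt animal 3 and ret/ret animal 2, Gad1 was at 0.31 in ret/wt and was still the middle value. In ret/ret Pvalb was then at 1.05 and the middle value was Gad1 at -0.08, so the ret/ret median rests on those animals. In bulk tissue, fewer cells of a type and less RNA per cell cannot be told apart. The p-values measure the spread between the 4 libraries of a group. The main fits held no term for the animal, so the pairing of cortex and thalamus within an animal was not used. Fits with the animal as a block are given as an alternative.

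Gad2, whose enzyme is concentrated at nerve endings, was evenly expressed in cortex. Its level was 190, 181, 201 and 220.2 CPM in ret/wt cortex and 201, 202, 214 and 176 CPM in ret/ret cortex. In thalamus it was 524, 490.5, 359 and 309 CPM in ret/wt and 233, 146, 389 and 289 CPM in ret/ret. Every ret/wt thalamus library exceeded every cortex library, whereas ret/ret thalamus spanned the cortical values. The ret/wt difference was 2.14-fold (log2 1.10 ± 0.20 SE, edgeR adjusted p = 0.00621), with thalamus higher in 4 of 4 animals. In ret/ret mice the log2 difference was 0.42 ± 0.26 (edgeR adjusted p = 0.343), and thalamus was higher in 3 of 4 animals. Without ret/wt animal 3 and ret/ret animal 2 it was 0.64 in ret/ret (edgeR adjusted p = 0.0730). In ret/wt it was then 1.17 (edgeR adjusted p = 0.0221). The group means fell in the order ret/wt thalamus (421 ± 103 CPM, SD, n = 4), ret/ret thalamus (264 ± 102 CPM, SD, n = 4) and both cortex groups (198 CPM each). Only ret/wt thalamus against ret/wt cortex passed the test.

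Gad1, whose enzyme makes most of the GABA in the brain, did not differ between the regions beyond the spread. It was at 394, 361, 436 and 322 CPM in ret/wt cortex and at 248, 740.3, 456 and 343 CPM in ret/ret cortex. Thalamus levels were 488, 447, 522 and 390.3 CPM in ret/wt and 266, 189, 422 and 292 CPM in ret/ret. The groups overlapped in each comparison. In ret/wt mice thalamus was higher in 4 of 4 animals by a nearly even amount, 0.26 to 0.31 on the log2 scale (fitted log2 difference 0.30 ± 0.18 SE, edgeR adjusted p = 0.308). With the animal as a block the ret/wt value did not pass either (edgeR adjusted p = 0.314). In ret/ret mice thalamus was higher in 1 of 4 animals (-0.61 ± 0.35 SE, edgeR adjusted p = 0.302). The ret/ret value was -0.08 (adjusted p = 0.861) without ret/wt animal 3 and ret/ret animal 2.

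Slc32a1, the vesicular GABA transporter gene, was at 70.8, 73.5, 32.8 and 52.6 CPM in ret/wt cortex and at 159, 106, 73.8 and 106 CPM in ret/wt thalamus. The lowest thalamus and the highest cortex value nearly touched. The log2 difference was 0.97 ± 0.30 SE and missed the threshold (edgeR adjusted p = 0.0612), with thalamus higher in 4 of 4 animals. With the animal as a block the adjusted p was 0.0245, and without ret/wt thalamus replicate 3 it was 0.0415. In ret/ret mice it was at 65.3, 142, 54.1 and 55.7 CPM in cortex and at 98.7, 38.7, 120.5 and 109 CPM in thalamus (0.21 ± 0.41 SE, edgeR adjusted p = 0.782). Animal 2 ran against the other 3 there, with the highest cortex and the lowest thalamus value. The ret/ret difference was 0.92 and passed (adjusted p = 0.00816) without ret/wt animal 3 and ret/ret animal 2. Group means ran from 111 ± 35.4 CPM in ret/wt thalamus through 91.6 ± 36.4 CPM in ret/ret thalamus and 79.3 ± 42.0 CPM in ret/ret cortex to 57.4 ± 18.9 CPM in ret/wt cortex (SD, n = 4). Neighbours in that order lay within the spread.

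Lhx6, a LIM homeobox factor of parvalbumin and somatostatin interneurons, had the largest fitted regional difference of the 9 genes in ret/wt mice. It was at 25.4, 22.6, 18.0 and 27.8 CPM in ret/wt cortex and at 12.99, 7.10, 21.1 and 21.5 CPM in ret/ret cortex. Lhx6 in thalamus was at 0.129, 0.721, 0.418 and 0.968 CPM in ret/wt and at 1.37, 0.357, 1.31 and 1.16 CPM in ret/ret. These thalamus values rest on 3 to 31 counts a library, and the lowest is at the floor of 3 counts that a count of 0 allows. Lhx6 was 42.2-fold lower in ret/wt thalamus (log2 -5.40 ± 0.49 SE, edgeR adjusted p = 0.000206). It was 14.8-fold lower in ret/ret thalamus (log2 -3.89 ± 0.51 SE, edgeR adjusted p = 0.00406). The direction held in 8 of 8 animals.

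Npy, a neuropeptide of cortical interneurons that modulates excitability, was at 70.2, 60.5, 38.8 and 30.1 CPM in ret/wt cortex and at 171, 27.0, 71.8 and 31.1 CPM in ret/ret cortex. Thalamic Npy was at 3.02, 3.33, 10.7 and 8.78 CPM in ret/wt and at 10.1, 2.95, 4.90 and 3.27 CPM in ret/ret. No thalamus library reached the lowest cortex library. Npy was 7.65-fold lower in ret/wt thalamus (log2 -2.94 ± 0.47 SE, edgeR adjusted p = 0.0028) and 14.1-fold lower in ret/ret thalamus (log2 -3.81 ± 0.68 SE, edgeR adjusted p = 0.0108).

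Vip marks interneurons that mainly inhibit other interneurons. It was at 62.3, 51.4, 43.5 and 35.1 CPM in ret/wt cortex and at 32.3, 13.2, 79.8 and 61.6 CPM in ret/ret cortex. Thalamic Vip was at 6.73, 5.77, 0.777 and 4.13 CPM in ret/wt and at 3.15, 0.983, 1.94 and 8.90 CPM in ret/ret. The regions were again apart in every library. Vip was 10.9-fold lower in ret/wt thalamus (log2 -3.45 ± 0.51 SE, edgeR adjusted p = 0.00194) and 12.5-fold lower in ret/ret thalamus (log2 -3.64 ± 0.75 SE, edgeR adjusted p = 0.0182). The ret/ret call was lost without ret/ret thalamus replicate 1 (adjusted p = 0.0615), ret/ret thalamus replicate 3 (0.0598) or ret/ret cortex replicate 3 (0.0533), with the log2 difference between -3.57 and -3.22. Animals 3 of ret/wt and 2 of ret/ret, which stood apart above, had the lowest thalamic Vip of their group.

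**Figure D2:**
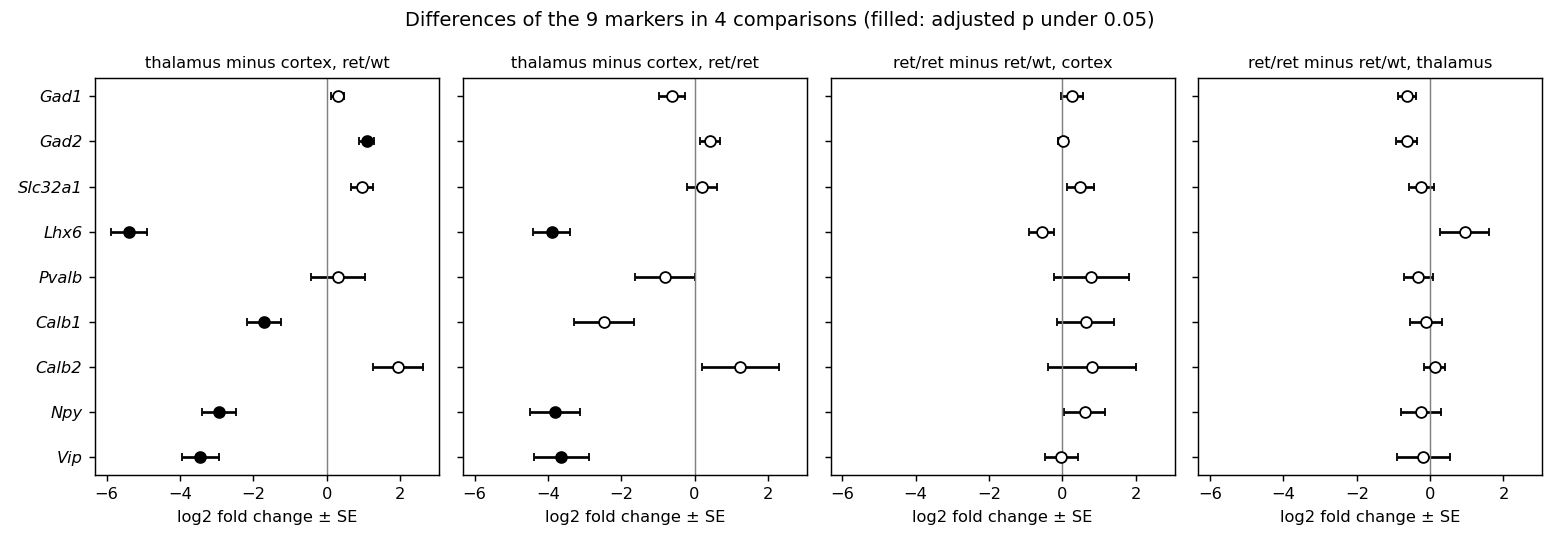
Log2 fold change with its standard error (edgeR) of each marker in 4 comparisons of 4 against 4 libraries, filled where the adjusted p was under 0.05. Filled points are Gad2, Lhx6, Calb1, Npy and Vip between regions in ret/wt and Lhx6, Npy and Vip in ret/ret, and both genotype panels hold open points only.

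The 3 calcium-binding protein genes varied widely between libraries of one cortex group. Calb1 was at 145, 163, 598 and 201 CPM in ret/wt cortex and at 214, 1218, 155 and 104 CPM in ret/ret cortex. In thalamus it was at 46.8, 79.99, 118 and 90.9 CPM in ret/wt and at 38.4, 159, 55.2 and 52.0 CPM in ret/ret. Thalamus was lower than cortex in 8 of 8 animals, and the 2 highest cortex values belong to the 2 libraries with cerebellum markers. The log2 difference was -1.71 ± 0.47 SE in ret/wt (edgeR adjusted p = 0.0379) and -2.47 ± 0.82 SE in ret/ret (edgeR adjusted p = 0.0883). Both passed without ret/wt animal 3 and ret/ret animal 2, at -1.21 in ret/wt (adjusted p = 0.0389) and -1.69 in ret/ret (adjusted p = 0.00707). With the animal as a block the ret/ret value also passed (adjusted p = 0.0319). The ret/wt call for Calb1 was lost without ret/wt cortex replicate 3 (-1.01, adjusted p = 0.0607) and without ret/wt thalamus replicate 1 (0.0893), 2 (0.0893) or 4 (0.0703).

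Calb2, the calretinin gene, was at 7.22, 14.97, 101 and 49.8 CPM in ret/wt cortex and at 13.9, 267, 5.40 and 12.1 CPM in ret/ret cortex. Calb2 in thalamus was at 136, 168, 101 and 259.9 CPM in ret/wt and at 179, 169, 151 and 212 CPM in ret/ret. Thalamus was higher in 3 of 4 animals of each genotype, and the exceptions were the 2 animals that stood apart. The log2 difference was 1.96 ± 0.68 SE in ret/wt (edgeR adjusted p = 0.0914) and 1.252 ± 1.05 SE in ret/ret (edgeR adjusted p = 0.479). Calb2 passed in both, at 2.98 (adjusted p = 0.0285) and 4.14 (adjusted p = 0.000895), without ret/wt animal 3 and ret/ret animal 2. Leaving out ret/wt cortex replicate 3 alone (2.80, adjusted p = 0.0221) or ret/ret cortex replicate 2 alone (4.12, adjusted p = 0.000778) was enough for a call.

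Pvalb, the parvalbumin gene of fast-spiking interneurons, showed no regional difference beyond its spread. It was at 63.2, 29.7, 207 and 10.96 CPM in ret/wt cortex and at 22.5, 405, 57.0 and 40.5 CPM in ret/ret cortex. In thalamus it was at 54.6, 52.4, 139.6 and 133 CPM in ret/wt and at 68.5, 54.4, 55.9 and 121 CPM in ret/ret. Thalamus was higher in 2 of 4 animals of each genotype. The log2 difference was 0.31 ± 0.73 SE in ret/wt (edgeR adjusted p = 0.828) and -0.81 ± 0.81 SE in ret/ret (edgeR adjusted p = 0.557). Leaving out ret/wt animal 3 and ret/ret animal 2 gave 1.24 in ret/wt (adjusted p = 0.262) and turned the ret/ret value to 1.05 (adjusted p = 0.101). Without those animals cortex means were 34.6 ± 26.4 CPM in ret/wt and 40.0 ± 17.3 CPM in ret/ret, and thalamus means 79.95 ± 45.8 and 82.0 ± 34.8 CPM (SD, n = 3).

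**Figure D3:**
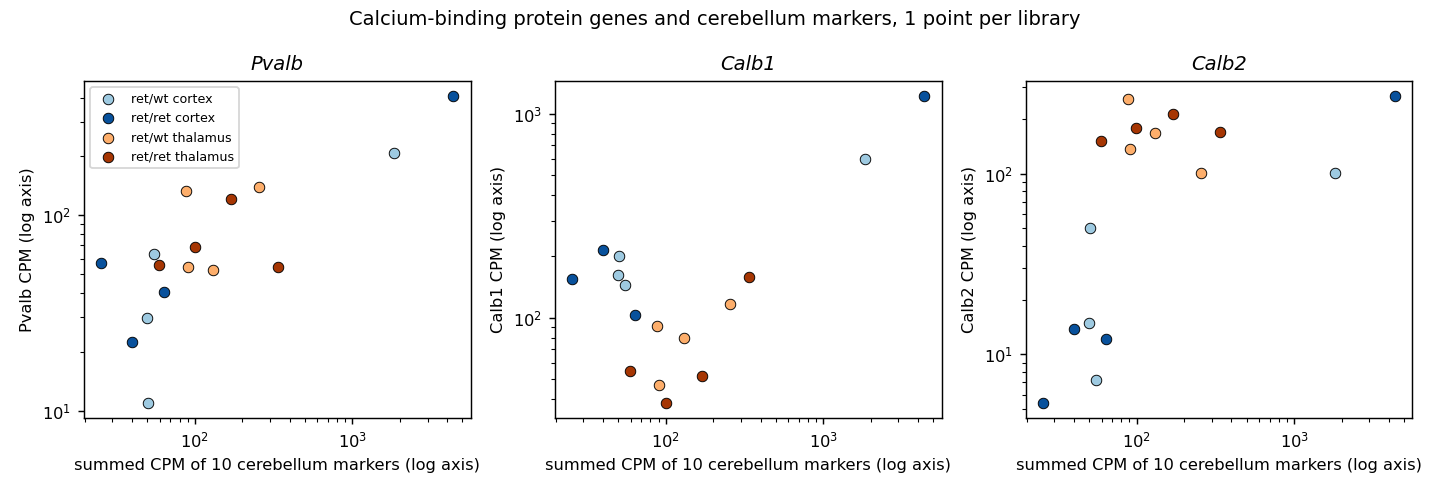
Pvalb, Calb1 and Calb2 CPM against the summed CPM of 10 cerebellum markers (log axes), 1 point per library. The 2 cortex libraries at 1829 and 4360 CPM of cerebellum markers hold the 2 highest Pvalb and Calb1 values and the 2 highest cortical Calb2 values.

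When ret/wt animal 3 and ret/ret animal 2 were left out, 6 members passed between regions in each genotype. In ret/wt these were Gad2, Lhx6, Calb1, Calb2, Npy and Vip, against 9.88% of all genes called. In ret/ret these were Slc32a1, Lhx6, Calb1, Calb2, Npy and Vip, against 17.4% of all genes called.

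Between genotypes in thalamus, none of the 9 markers passed the edgeR test, and in no other tool or setting tried did one pass. Gad1 alone had an unadjusted p under 0.05. Over all 14767 genes 0.0% were called and 3.93% had an unadjusted p under 0.05. For none of the 9 did the groups stay apart, against 2.73% of all genes. The median log2 difference (ret/ret minus ret/wt) was -0.25 for the members and -0.02 for all genes. That median is the value of Slc32a1, which was -0.14 without ret/wt animal 3 and ret/ret animal 2. Gad1 was 1.55-fold lower in ret/ret thalamus (log2 -0.63 ± 0.24 SE, unadjusted p = 0.0235, edgeR adjusted p = 0.9998), and 3 of the 4 ret/ret values lay below all ret/wt values. Gad2 was also 1.55-fold lower (log2 -0.64 ± 0.29 SE, unadjusted p = 0.0524). These became -0.40 for Gad1 and -0.50 for Gad2 without ret/wt animal 3 and ret/ret animal 2. The lowest Gad1, Gad2 and Slc32a1 values in thalamus were all in ret/ret thalamus replicate 2, which had the highest pan-neuronal sum (8842 CPM over 12 genes) and the highest thalamic glutamatergic sum of its group. Relative to the pan-neuronal genes, the differences were -0.51 for Gad1 and -0.53 for Gad2. Mitochondrial genes took 5.87% to 12.1% of counts in ret/ret thalamus and 4.24% to 8.80% in ret/wt thalamus. The part of these values in the Gad1 and Gad2 differences was not tested.

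Of the other 7 markers in thalamus, all but Lhx6 had log2 differences smaller than their errors. They were -0.25 ± 0.34 SE for Slc32a1, -0.32 ± 0.40 for Pvalb, -0.12 ± 0.44 for Calb1 and 0.12 ± 0.28 for Calb2. The peptides Npy (-0.25 ± 0.54) and Vip (-0.18 ± 0.73) were likewise within their error. Lhx6 was at 1.05 ± 0.470 CPM in ret/ret and 0.559 ± 0.364 CPM in ret/wt, at the low counts given above. Its log2 difference of 0.94 ± 0.66 SE was above its error (edgeR unadjusted p = 0.185).

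In cortex the genotypes did not differ in any of the 9 markers by edgeR, and 0 of 9 had an unadjusted p under 0.05. Over all 14288 genes 0.021% were called and 3.77% had an unadjusted p under 0.05, and the groups were apart for 2.32% of genes and for none of the 9. No other tool or setting tried called a marker, also without ret/wt animal 3 and ret/ret animal 2, where 0.00708% of genes were called. Gad2 was the most even of the 9, at 198 ± 16 CPM in ret/ret and 198 ± 16.8 CPM in ret/wt (SD, n = 4), with a log2 difference of 0.02 ± 0.14 SE. Lhx6 was at 15.7 ± 6.94 CPM in ret/ret and 23.5 ± 4.2 CPM in ret/wt (-0.57 ± 0.33 SE, unadjusted p = 0.115). Gad1 (0.26 ± 0.30), Slc32a1 (0.49 ± 0.36), Npy (0.61 ± 0.56) and Vip (-0.03 ± 0.45) also overlapped between genotypes. Pvalb (0.79 ± 1.02), Calb1 (0.64 ± 0.78) and Calb2 (0.81 ± 1.21) had the widest errors. The members' median of 0.49, against 0.01 for all genes, is the value of Slc32a1 alone. Without ret/wt animal 3 and ret/ret animal 2, the differences were -0.03 for Gad1, -0.15 for Slc32a1, 0.23 for Pvalb, -0.09 for Calb1 and -1.20 for Calb2.

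The difference of the regional differences (ret/ret minus ret/wt) was tested on all 16 libraries. None of the 9 passed by edgeR, against 0.0% of 15286 genes, and 2 had an unadjusted p under 0.05, against 1.6% of genes. These were Gad1 (-0.90 ± 0.41 SE, unadjusted p = 0.0411) and Lhx6 (1.52 ± 0.68 SE, unadjusted p = 0.0413), both with an adjusted p of 1.0. Gad2 followed at -0.67 ± 0.34 (unadjusted p = 0.0664). So Gad2 passing between regions in ret/wt alone, and Lhx6 being further apart there, are not shown to differ between genotypes. The Gad1 value was -0.38 and the Lhx6 value 1.59 without ret/wt animal 3 and ret/ret animal 2.

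The ratio of Gad2 to Gad1 within a library does not depend on library scaling, since both are divided by the same total. It was 0.482, 0.502, 0.462 and 0.684 in ret/wt cortex and 0.810, 0.273, 0.468 and 0.512 in ret/ret cortex. In thalamus it was 1.07, 1.10, 0.689 and 0.793 in ret/wt and 0.874, 0.774, 0.921 and 0.992 in ret/ret. All 4 ret/wt thalamus libraries were above the ret/wt cortex libraries, and in ret/ret 1 cortex library reached into the thalamic range. Means were 0.532 ± 0.102 in ret/wt cortex, 0.516 ± 0.222 in ret/ret cortex, 0.913 ± 0.203 in ret/wt thalamus and 0.890 ± 0.0913 in ret/ret thalamus (SD, n = 4). On the log2 scale the ratio was higher in thalamus by 0.77 in ret/wt (two-sided exact permutation p = 0.0286, the smallest that 4 against 4 can give) and by 0.89 in ret/ret (exact p = 0.0571). Adjusted over the 5 ratio tests both exact p-values became 0.143, so neither passed. Given the other exact p-values, neither region test could have passed this adjustment, even at the smallest exact p of 0.0286. The adjusted values therefore cannot decide whether the ratio differs between the regions. In every animal of both genotypes the ratio was higher in thalamus than in cortex. Both region tests permuted libraries freely, so they ignored that cortex and thalamus came from the same animals. Genotype moved it by -0.01 in thalamus (exact p = 0.943) and -0.13 in cortex (exact p = 0.800). The regional differences of the ratio differed by 0.12 between genotypes (exact p = 0.771).

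**Figure D4:**
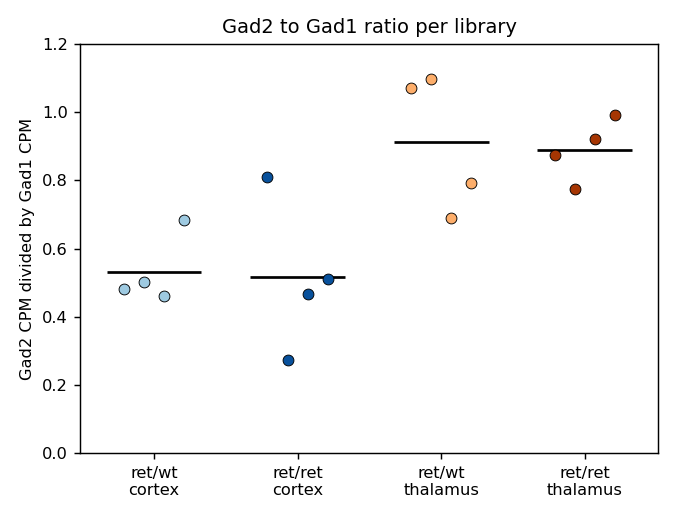
Gad2 CPM divided by Gad1 CPM in each library (linear axis from 0), with a line at the mean of each group of 4. Thalamus libraries lie between 0.689 and 1.10 and cortex libraries between 0.273 and 0.810, with ret/ret cortex replicate 2 the lowest.

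Genes that act with the members are given by list. List counts here and below stand against the shares over all genes tested. These were 5.44% higher and 7.12% lower in ret/wt thalamus, and 4.1% higher and 5.4% lower in ret/ret thalamus. Of 6 genes for uptake and breakdown of GABA, 2 were higher in thalamus in both genotypes. Slc6a11, a GABA transporter mainly of astrocytes, was at 1064 ± 203 CPM in ret/wt thalamus and 174 ± 44.8 CPM in ret/wt cortex (log2 2.62 ± 0.25 SE, edgeR adjusted p = 0.000264). In ret/ret its log2 difference was 2.86 ± 0.34 (edgeR adjusted p = 0.00304). Abat, the enzyme that breaks down GABA, was higher by 0.97 in ret/wt and 1.04 in ret/ret. The list's median was 0.72 in ret/wt and 0.35 in ret/ret, against 0.03 and -0.02 for all genes.

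Forebrain GABAergic transcription factors, many of which act in the development of these cells, were mainly lower in thalamus among those that passed the test, as Lhx6 was. Of 13 tested, 0 rose and 5 fell in ret/wt thalamus against cortex, and 1 rose and 6 fell in ret/ret. The largest ret/wt differences were Dlx5 (-3.86), Dlx2 (-3.71) and Dlx6 (-2.76), and the largest in ret/ret were Dlx2 (-5.20) and Dlx1 and Dlx6 (both -3.61). Summed over the thalamus group, Dlx2 had 14 counts in ret/wt and 5 in ret/ret, and Dlx5 had 11 and 14. The sizes of the Dlx2 and Dlx5 differences therefore rest on few thalamic counts. The 1 that rose was Npas1 (1.71), named after its value was seen. Without ret/wt animal 3 and ret/ret animal 2, 0 rose and 6 of 13 fell in ret/wt, and 1 rose and 7 of 14 fell in ret/ret. The list's median was -1.51 in ret/wt and -1.06 in ret/ret.

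Of 22 cortical interneuron subclass genes, 4 were higher and 6 lower in ret/wt thalamus, and 1 was higher and 6 lower in ret/ret. Cort, the cortistatin gene of a somatostatin subclass, was lower by -5.26 in ret/wt and -4.04 in ret/ret. Its thalamus groups held only 9 counts in ret/wt and 17 in ret/ret, so the size of its difference is uncertain. Lamp5, the marker of neurogliaform cells, was lower by -3.46 and -2.69. Sncg, which names a basket cell subclass, went the other way, at 29.9 ± 11 CPM in ret/wt thalamus and 1.68 ± 0.670 CPM in ret/wt cortex (log2 4.17 in ret/wt and 5.39 in ret/ret). The counts without ret/wt animal 3 and ret/ret animal 2 were 4 higher and 5 lower in ret/wt and 2 higher and 7 lower in ret/ret. The list's median was -0.38 in ret/wt and -0.44 in ret/ret.

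Of the genes listed for thalamic GABAergic neurons, 4 of 7 tested passed as higher in thalamus in each genotype and none as lower. Sox14, a factor of thalamic interneurons of midbrain origin, had 0 counts in all 8 cortex libraries and 357 counts in ret/wt and 241 in ret/ret thalamus. Against a floor of 3 counts over the cortex group, Sox14 was at least 109.6-fold higher in ret/wt thalamus and at least 74.7-fold higher in ret/ret thalamus. Gata3, a factor of midbrain GABAergic lineages, had 883 counts in ret/wt thalamus and 2 in ret/wt cortex, a ratio of 407 (95% interval 112 to 3362, counting error only). In ret/ret its log2 difference was 6.11 ± 0.54 SE. Six3 (6.04) was the third in ret/wt and Tal1 (3.05) in ret/ret. The list's median was 3.57 in ret/wt and 3.05 in ret/ret. When ret/wt animal 3 and ret/ret animal 2 were left out, 4 and 5 of 7 passed.

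Of 13 genes of fast-spiking cells and the perineuronal nets around them, 2 were higher in ret/wt thalamus, and 0 passed in ret/ret, where 3 had an unadjusted p under 0.05. The 2 were Acan, the net's aggrecan core (1.56), and Kcnc1, a fast potassium channel gene (0.87). Without ret/wt animal 3 and ret/ret animal 2, 0 passed in ret/wt, and 2 higher and 1 lower passed in ret/ret, so this list's counts rest on those animals. Of 12 pan-neuronal genes, 2 were higher and 2 lower in ret/wt thalamus, and 1 higher and 1 lower in ret/ret. Without the same animals, 0 were higher and 1 lower in ret/wt, and 0 higher and 2 lower in ret/ret. Between genotypes and for the interaction, 0 genes of any of the 13 lists passed by edgeR. At an unadjusted p under 0.05 the 5 GABAergic lists gave Abat, Kcnab3 and Six3 in thalamus, Abat and Aldh5a1 in cortex, and Six3 and Gata3 in the interaction, named after their values were seen.

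**Figure D5:**
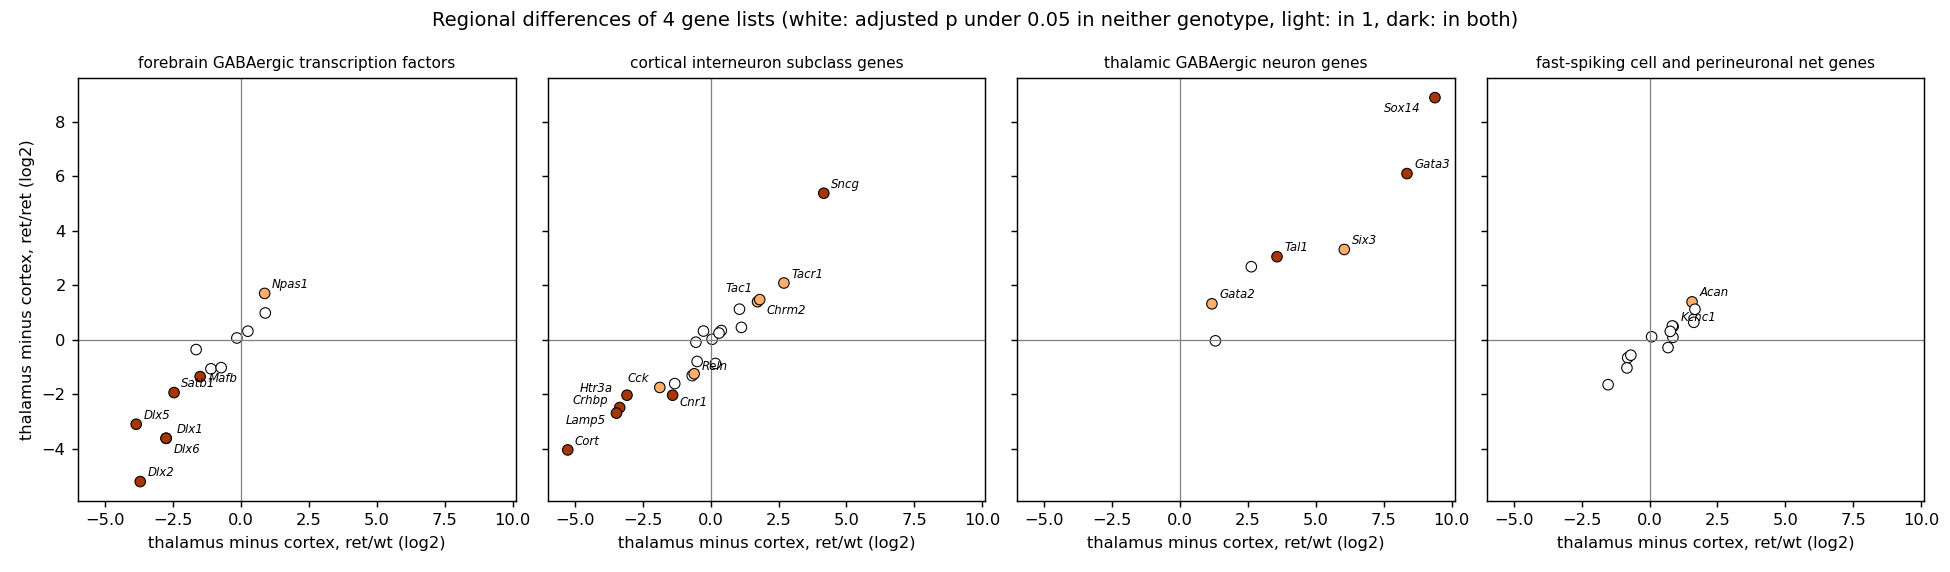
Log2 difference between thalamus and cortex in ret/wt (x axis) and ret/ret (y axis) of the tested genes of 4 lists, coloured by the number of genotypes in which the adjusted p was under 0.05 and named where at least 1 passed. Dlx factors, Cort and Lamp5 lie in the lower left, and Sox14, Gata3 and Sncg in the upper right.

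Markers of neighbouring tissue were examined beside the members. Of the striatum markers, 1 was higher and 2 lower in ret/wt thalamus, and 1 higher and 1 lower in ret/ret, with Drd2 the largest (3.45 and 4.44). For the hippocampal dentate gyrus and choroid plexus lists 0 genes passed between regions, with 0 and 1 genes at an unadjusted p under 0.05 in ret/wt and 1 and 1 in ret/ret. Of the hypothalamus markers 2 or fewer were tested, and Pmch passed in ret/ret (3.01). The cerebellum list gave 1 gene lower in thalamus in each genotype, Neurod1 (-3.76 and -4.41), whose cortex level is highest in the 2 libraries named above. Neurod1 still passed as lower in both genotypes without ret/wt animal 3 and ret/ret animal 2. Of the same list 2 genes then passed as higher in thalamus, En2 and Barhl2 in ret/wt and Zic1 and En2 in ret/ret. The part of these tissues in the members' levels was not tested.

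Members did not form one pattern across the 16 libraries. Lhx6 and Vip had a Pearson r of 0.89 and Lhx6 and Npy of 0.88 in log2 CPM, whereas Gad2 and Lhx6 had an r of -0.66 and Gad1 and Lhx6 of 0.03. These are descriptions over libraries that share regions and animals. Once group means were removed, Gad1 and Gad2 had an r of 0.52, which was 0.54 over 12 libraries without ret/wt animal 3 and ret/ret animal 2. Calb1 and Calb2 fell from 0.77 to 0.41 when those animals were left out, Pvalb and Calb1 from 0.65 to -0.18, and Gad1 and Pvalb from 0.64 to 0.25. The gene most like each member among 15286 was Gm11549 for Vip (r 0.97), Ctxn1 for Lhx6 (0.97), Efcab6 for Npy (0.95), Nhlh2 for Calb2 (0.96) and Grpel2 for Calb1 (0.94). It was Clec1a for Slc32a1 (0.89), Cerk for Pvalb (0.88), Ubfd1 for Gad2 (0.88) and Lrrc38 for Gad1 (0.85). Cckbr, the receptor of the peptide cholecystokinin, came next for Vip (0.97).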

How the data were processed

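RNA from 16 libraries was polyA-enriched and sequenced as stranded libraries, per the labels' protocols. The authors deposited expected counts per Ensembl gene (estimated counts that are not whole), not scaled to depth. The submitters' processing notes name kallisto 0.44.0 and GRCm38.p6 without their roles. Expected counts were rounded and fitted in R 4.3.3 with edgeR 4.0.16 (filterByExpr at a minimum count of 10 and total of 15, TMM, estimateDisp, glmQLFit, glmQLFTest at their defaults). Benjamini-Hochberg adjustment ran over all genes of a comparison, with 0.05 as the threshold. Each comparison of 2 groups used its own 8 libraries, and the interaction all 16, with group as the only term. Standard errors were the log2 fold change divided by the root of F. Totals of 13415391 to 29135064 counts put the floor of 3 counts at 0.103 to 0.224 CPM, and intervals and floors cover counting error only. Symbols and coordinates came from GENCODE M21, matched for 21581 of 21804 identifiers.

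Samples were grouped by their labels, whose animal identifiers pair cortex and thalamus libraries of equal number within a genotype, and equal numbers across genotypes are different animals. Residuals of libraries from the same animal had a mean correlation of 0.07 over 15286 genes, and those of equally numbered different animals -0.01. No pair of libraries in a group agreed within sampling noise (chi-square per gene 40.5 to 202).

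The members, the 13 lists and the comparisons were chosen with earlier results of these data known. All members were named in each comparison. Of each list, up to 3 genes with the largest absolute log2 fold change among those that passed were named, plus marker genes of other regions shown beside a member. Likeness was the Pearson correlation of log2 CPM (prior count 1) over 16 libraries. Ratios were tested by two-sided exact permutation, in the region tests without pairing by animal. The fits were tested on simulated data. Alternatives were other scalings, filters, thresholds and tools (DESeq2 1.42.0, limma 3.58.1), all libraries in one fit, a block and libraries left out. The block was the animal between regions and in the interaction, and the replicate number between genotypes. Sst was not analysed here, and 1 gene of a list is not reported here. Plots used matplotlib 3.10.9, exact tests scipy 1.17.1, and tables pandas 2.3.3 with numpy 2.4.6 under Python 3.11.15.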

Additional observations from a re-analysis of the deposited data

Results flagged for a closer look

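In groups of 4 libraries, a value was picked out when its gap to the nearest other, divided by the group's range, exceeded Dixon's critical value at 95%. Of 40 groups checked (the 9 markers and the ratio of Gad2 to Gad1 in 4 groups each), 6 were picked out, where chance gives about 1 in 20. In replicate 2 of ret/ret cortex Slc32a1 reached 142 CPM, above 54.1 to 65.3 CPM in the other 3. Pvalb stood at 405 CPM in the same library, above 22.5 to 57.0 CPM. Calb1 stood at 1218 CPM there, above 104 to 214 CPM, and Calb2 at 267 CPM, above 5.40 to 13.9 CPM. In replicate 3 of ret/wt cortex Calb1 reached 598 CPM, above 145 to 201 CPM. In replicate 2 of ret/ret thalamus it reached 159 CPM, above 38.4 to 55.2 CPM. All 6 values are high values of ret/wt animal 3 or ret/ret animal 2, the 2 animals whose cortex libraries hold cerebellum markers. In the thalamus library of ret/ret animal 2, Gabra6 was at 0.179 CPM and Pcp2 at 0.268 CPM.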

How the results depend on the processing

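Of 576 values from 45 results under 13 settings, single libraries left out aside, 541 kept their direction and their side of the threshold, 12 newly passed, 5 no longer passed and 18 changed sign. DESeq2 gave no adjusted p for Calb1 between genotypes in cortex, nor for Pvalb and Calb2 between regions in ret/ret. Those values are among the 541 by their direction alone. The number of members called between regions in ret/ret was 1 (Lhx6) at an adjusted p under 0.01 and 6 without ret/wt animal 3 and ret/ret animal 2. It was 2 to 4 when each library was left out in turn, and 4 to 6 in ret/wt. Without those animals the thalamus genotype differences became 0.051 for Pvalb, -0.036 for Calb2 and 0.30 for Npy. In cortex they became -0.029 for Gad1, -0.15 for Slc32a1, -0.091 for Calb1, -1.20 for Calb2 and 0.24 for Vip. Between regions in ret/ret Pvalb became 1.05, and the interactions 0.0065 for Slc32a1 and 1.16 for Calb2. The log2 ratio of Gad2 to Gad1 became 0.078 between genotypes in cortex and -0.15 in the interaction. Between regions in ret/wt it was 0.83 (exact p = 0.1, the smallest that 3 against 3 can give). With limma-voom Calb2 was -0.36 between genotypes in cortex and 0.54 in the interaction, and Pvalb 0.033 between regions in ret/ret. With all libraries in one fit Gad2 was -8.7e-05 between genotypes in cortex. With the animal as a block Calb2 was 0.70 in the interaction and Pvalb 0.22 between regions in ret/ret. Between genotypes the block was the replicate number, which joins different animals, so it corrects for no shared animal. With it Calb2 was -0.45 in cortex. The animal block newly called Slc32a1 in ret/wt and Calb1 in ret/ret between regions, and neither block changed another call of a member. The cause of these changes was not tested.

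Leaving out each library in turn, the thalamus genotype differences that changed sign ranged from -0.40 to 0.0099 for Slc32a1, -0.76 to 0.096 for Calb1, -0.061 to 0.45 for Calb2, -0.79 to 0.099 for Npy and -1.06 to 0.14 for Vip. In cortex they ranged from -0.10 to 0.46 for Gad1, -0.039 to 0.076 for Gad2, -0.94 to 1.93 for Pvalb, -0.79 to 1.32 for Calb1, -2.05 to 1.64 for Calb2, -0.19 to 0.89 for Npy and -0.41 to 0.28 for Vip. Between regions Pvalb ranged from -1.14 to 0.93 in ret/ret and from -0.053 to 1.47 in ret/wt. The interaction ranged from -2.27 to 0.63 for Pvalb, -1.46 to 0.67 for Calb1, -1.54 to 2.16 for Calb2 and -1.07 to 0.20 for Vip. The log2 ratio of Gad2 to Gad1 ranged from -0.14 to 0.084 between genotypes in thalamus, -0.38 to 0.14 in cortex, 0.61 to 1.14 and 0.67 to 0.90 between regions in ret/ret and ret/wt, and -0.089 to 0.38 in the interaction.

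Between regions, scaling to the pan-neuronal genes or by upper-quartile factors moved the median of all genes by more than 0.1. It was 0.03 by TMM, 0.33 relative to the pan-neuronal genes and 0.13 with upper-quartile factors in ret/wt, and -0.02, 0.30 and 0.10 in ret/ret. Relative to the pan-neuronal genes 2 of 5 members called in ret/wt were higher in thalamus (Gad2 and Slc32a1), against 1 of 5 by TMM, and Calb1 was lost (adjusted p = 0.062), as it was with all libraries in one fit (0.121). The legacy fit planned as an alternative is the default of the installed edgeR, so it was not run apart, and its newer form was added after seeing the data. It changed no call of a member. Depth limits the thalamic values of Lhx6, which rest on 3 to 31 counts a library, and among the list genes those of Dlx2, Dlx5 and Cort.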
